A study of Mus musculus with 12 samples.

Results

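The subunits of the transcription factor NF-κB, the inhibitors and co-factors that it induces, and the cytokines IL-1β and TNF were followed in whole livers of septic mice. The group holds 10 genes of the 25611 genes in the count table (Nfkb1, Nfkb2, Rela, Relb, Bcl3, Nfkbia, Nfkbiz, Tnfaip3, Il1b and Tnf). They were chosen by symbol and not by a rule on their values, but with earlier results of these data known. RNA was sequenced from 12 male C57BL/6J mice aged 8 to 10 weeks, in 3 groups of 4 livers each taken 30 hr after surgery. Sham mice had the abdomen opened only, CLP mice had the cecum tied and punctured 2 times with a 22 gauge needle (cecal ligation and puncture, which seeds gut bacteria into the abdomen), and CLP+DCA mice had CLP and then dichloroacetate (DCA), an inhibitor of pyruvate dehydrogenase kinases, at 25 mg/kg into the abdomen at 24 hr. The labels give an injection at 24 hr for all 12 mice, and do not name what the sham and CLP mice received. No sham mice given DCA are among the groups, so an effect of DCA without sepsis was not measured. Each liver is 1 animal. Since whole tissue was used, a change in a gene's RNA per cell and a change in the number of cells that express it cannot be told apart.

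Between 24436513 and 44266819 reads were counted per liver, and values are given as CPM, read counts scaled to a common library size, with library sizes adjusted by the trimmed mean of M values (TMM). Albumin, the main plasma protein of hepatocytes, was at 15323 CPM or above in all livers. CLP+DCA replicate 3 stood apart from its group. On a scale where the sham mean is 0 and the CLP mean is 1, over the 367 genes that differed between CLP and sham, it lay at 0.929, while the other CLP+DCA livers lay at 0.303 to 0.455 and the CLP livers at 0.827 to 1.20. Counts of genes that passed in comparisons with CLP+DCA are therefore given with and without it. In CLP replicate 3, desmin (Des), an intermediate filament of muscle and stellate cells, was at 172 CPM against 3.32 to 3.93 CPM in the other CLP livers, and its part in the results below was not tested.

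NF-κB is a dimer that waits in the cytoplasm, bound by inhibitors of the IκB family. Signals from IL-1, TNF and bacterial products lead to the breakdown of IκB, the dimer enters the nucleus, and among the genes it turns on are those of its own inhibitors, which end the response. In the liver the pathway drives acute phase proteins and chemokines, in hepatocytes as well as in resident macrophages. RelA (Rela) and p50 (from Nfkb1) form the classical dimer, and RelB (Relb) and p52 (from Nfkb2) the alternative dimer. IκBα (Nfkbia) holds the classical dimer in the cytoplasm. Bcl-3 (Bcl3) and IκBζ (Nfkbiz) are nuclear members of the IκB family that act with p50 or p52 on DNA. A20 (Tnfaip3) is a ubiquitin-editing enzyme that shuts off signalling from the TNF and IL-1 receptors.

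A short DNA word, the NF-κB consensus, marks many sites where the dimers bind, and the windows from 250 bases before to 50 bases after RefSeq gene starts (GRCm38.p6, the mm10 assembly) were searched for it on both strands. The tables used held windows for 7 of the 10 genes, 10 windows in all, and none for Nfkb1, Relb and Nfkbiz. The consensus was found for 4 of the 7 genes (Nfkb2, Bcl3, Nfkbia and Tnfaip3), and for 5.14% of the 27025 genes with a window. The looser word GGGNNNNNCC, of which each consensus match is also a match, was found for 6 of the 7 genes and for 53.5% of all genes. A match describes the letters only and is not a measured binding site. The bases before the start are shown for 3 genes with consensus matches there, 5′ to 3′ on the strand of the gene, with the matches in capitals, whichever strand they are read on.
Nfkbia, chr12:55492648-55492897, minus strand: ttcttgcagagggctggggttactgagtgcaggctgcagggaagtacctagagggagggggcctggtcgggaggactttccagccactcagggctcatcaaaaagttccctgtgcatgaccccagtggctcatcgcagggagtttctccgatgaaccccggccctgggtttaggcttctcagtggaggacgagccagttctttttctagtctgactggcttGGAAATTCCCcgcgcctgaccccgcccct
Tnfaip3, chr10:19015411-19015660, minus strand: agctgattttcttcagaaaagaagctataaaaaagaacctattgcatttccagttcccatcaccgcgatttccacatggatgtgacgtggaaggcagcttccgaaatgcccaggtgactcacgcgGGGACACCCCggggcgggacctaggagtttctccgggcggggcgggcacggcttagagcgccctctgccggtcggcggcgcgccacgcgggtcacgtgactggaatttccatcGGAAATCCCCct
Nfkb2, chr19:46304487-46304736, plus strand: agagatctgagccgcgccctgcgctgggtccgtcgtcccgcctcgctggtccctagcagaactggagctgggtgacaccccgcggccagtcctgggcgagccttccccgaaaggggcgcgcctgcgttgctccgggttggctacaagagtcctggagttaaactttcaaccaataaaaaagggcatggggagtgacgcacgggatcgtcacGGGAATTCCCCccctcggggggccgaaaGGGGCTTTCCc
In Nfkbia the match starts 29 bases before the start and reads GGGAATTTCC on the opposite strand. In Tnfaip3 GGGACACCCC starts 125 bases before the start, and GGGGATTTCC, on the opposite strand, 12 bases before it. In Nfkb2 the palindrome GGGAATTCCC lies 39 bases before the start, overlapped by GGGGAATTCC on the opposite strand, and GGGGCTTTCC starts 11 bases before it. These positions are for the starts shown, and both Tnfaip3 and Nfkb2 have other starts. For the Nfkb2 start at base 46305695, GGGACATTCC on the opposite strand starts 236 bases before it, and GGGACTTTCC lies after it. That GGGACTTTCC is 225 bases before the Nfkb2 start at base 46305930. The window of the Tnfaip3 start at base 19011963 held no consensus match. In Bcl3 the match, GGGACTTCCC on the opposite strand, lies within the 50 bases after the start. The windows of Rela, Il1b and Tnf held no consensus match.

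Levels of different genes can be compared only per length of their exons, here per kb of merged exons of the GENCODE vM21 annotation, which need not be the one used for counting. In sham livers Nfkbia (20.4 CPM per kb), Bcl3 (19.5) and Rela (16.3) were the most abundant of the 10 genes. The sham livers of Bcl3 (15.2 to 24.6 CPM per kb) overlapped those of both Nfkbia (17.5 to 23.1) and Rela (15.6 to 17.1), so that the order of these neighbours is not clear. Nfkbiz (2.52), Nfkb1 (1.87) and Nfkb2 (1.51) followed, and Nfkb1 and Nfkb2 overlapped. Il1b (0.647), Tnfaip3 (0.400) and Relb (0.381) overlapped as neighbours at a lower level, and Tnf was lowest at 0.0880 CPM per kb. In CLP livers Nfkbiz (7.16), Tnfaip3 (4.26) and Nfkb2 (3.21) stood above Nfkb1 (1.99 CPM per kb) by their means, Tnfaip3 having passed Nfkb1, Nfkb2 and Il1b, although its CLP livers overlapped those of its neighbours in this order. Bcl3, Nfkb2, Il1b and Nfkb1 overlap other annotated genes on the opposite strand or at the same place (Gm16174 and Gm16175 for Bcl3, Psd and AC114539.1 for Nfkb2, Il1bos for Il1b, Gm43430 for Nfkb1), and the library kit does not mark strand, so reads of such a pair cannot be told apart.

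To ask how the pathway's own genes stood late in sepsis, CLP was compared with sham. Nfkbiz rose 2.83-fold and Il1b 2.56-fold, and these were the 2 genes that passed the test, of 9 tested. Across all 13190 genes tested, 2.78% (367) passed at a false discovery rate (FDR) of 0.05. Tnfaip3 had the largest fold, 10.5, with an FDR of 0.0630, and Relb and Nfkb2 had folds of 3.63 and 2.11 that did not pass. The 4 CLP livers did not overlap the 4 sham livers for 8 of the 10 genes, with 7 higher (Nfkb2, Relb, Bcl3, Nfkbiz, Tnfaip3, Il1b and Tnf) and 1 lower (Rela). Among all genes tested, 26.5% did not overlap.

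**Figure D1:**
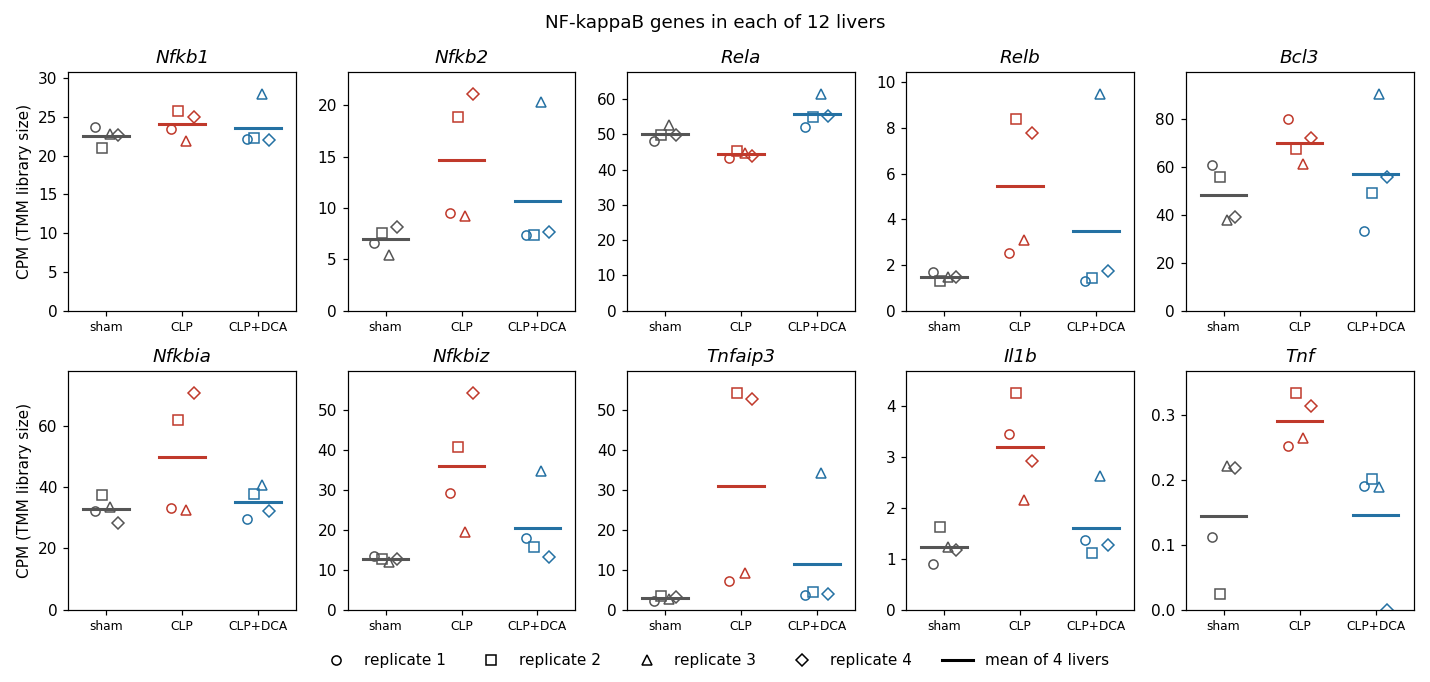
Expression of each of the 10 genes in each of 12 livers, in CPM on a linear axis from 0, with 4 livers per group, symbols for the replicate number and a bar at the group mean. Tnfaip3 lies at 2.27 to 3.52 CPM in sham and 7.17 to 54.2 CPM in CLP, Rela is lowest in CLP, and CLP+DCA replicate 3 (triangle) is highest of its group for every gene but Tnf.

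Among the subunits, Rela RNA was 48.0, 49.8, 52.6 and 49.8 CPM in sham livers 1 to 4 and 43.4, 45.3, 44.6 and 43.8 CPM in CLP livers 1 to 4. Every CLP liver lay below every sham liver. Its log2 fold change of -0.18 ± 0.07 (SE) did not pass the test (FDR 0.128). Nfkb1 averaged 22.5 ± 1.12 CPM in the sham livers and 24.0 ± 1.71 CPM in the CLP livers (SD, n = 4 each), and the groups overlapped (log2 fold change 0.09 ± 0.09 SE, FDR 0.511). That sign turned when libraries were scaled by their totals alone (-0.08), a scaling that moved the median of all genes tested from 0.02 to -0.15.

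The subunits of the alternative dimer lay higher in all CLP livers. Relb was 1.67, 1.29, 1.49 and 1.48 CPM in sham and 2.51, 8.38, 3.09 and 7.77 CPM in CLP livers 1 to 4. Nfkb2 was 6.62, 7.60, 5.38 and 8.15 CPM in sham and 9.54, 18.9, 9.26 and 21.1 CPM in CLP. For both genes CLP livers 2 and 4 were high, and livers 1 and 3 were lower but still above the sham range. The log2 fold changes were 1.86 ± 0.66 (SE) for Relb and 1.08 ± 0.38 for Nfkb2, with FDR of 0.101 and 0.102.

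IκBζ, the nuclear co-factor needed for a set of secondary response genes such as Lcn2, was among the genes that rose. Nfkbiz (mm10 chromosome 16, bases 55811377 to 55838641, minus strand) was 13.5, 12.7, 11.8 and 12.6 CPM in sham and 29.2, 40.7, 19.5 and 54.3 CPM in CLP livers 1 to 4. All CLP livers lay above the sham range, and the 4 sham livers were close together (12.7 ± 0.665 CPM, SD). The log2 fold change was 1.50 ± 0.34 (SE, FDR 0.0450). Bcl3 averaged 48.3 ± 11.7 CPM in the sham livers and 70.3 ± 7.81 CPM in the CLP livers (SD, n = 4 each), with the lowest CLP liver (61.5 CPM) above the highest sham liver (60.9 CPM), and did not pass (log2 fold change 0.54 ± 0.26 SE, FDR 0.197).

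The inhibitors of the cytoplasm differed in their pattern. Tnfaip3 (mm10 chromosome 10, bases 19000910 to 19015410, minus strand) was 2.27, 3.52, 2.66 and 3.12 CPM in sham and 7.17, 54.2, 9.26 and 52.6 CPM in CLP livers 1 to 4. Its CLP livers spanned 7.57-fold among themselves, the widest span of the 10 genes, and all lay above sham, with a log2 fold change of 3.40 ± 0.91 (SE). Nfkbia, the gene of IκBα, was 32.2, 37.2, 33.4 and 28.2 CPM in sham and 33.2, 61.8, 32.6 and 70.7 CPM in CLP. CLP livers 1 and 3 lay within the sham range, and the difference did not pass (log2 fold change 0.59 ± 0.24 SE, FDR 0.131).

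Of the cytokines, IL-1β rose in RNA and remained a low transcript. Il1b (mm10 chromosome 2, bases 129364578 to 129371139, minus strand) was 0.893, 1.63, 1.23 and 1.18 CPM in sham and 3.46, 4.26, 2.15 and 2.92 CPM in CLP livers 1 to 4, and the groups did not overlap. The log2 fold change was 1.36 ± 0.31 (SE, FDR 0.0463). Tnf was near the limit of detection, with 3, 1, 7 and 8 reads in sham livers and 11, 7, 11 and 7 reads in CLP livers, and the low-count filter removed it from the model. In CPM its CLP livers (0.253 to 0.335) all lay above its sham livers (0.0248 to 0.222), a difference of 0.93 in log2 CPM with a prior count of 2 (two-sided exact permutation test, n = 4 per group, p = 0.0286, the smallest that 4 against 4 allows). Leaving out any CLP liver raised that p to between 0.0857 and 0.143, and the unfiltered edgeR model gave an adjusted p of 0.394.

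**Figure D2:**
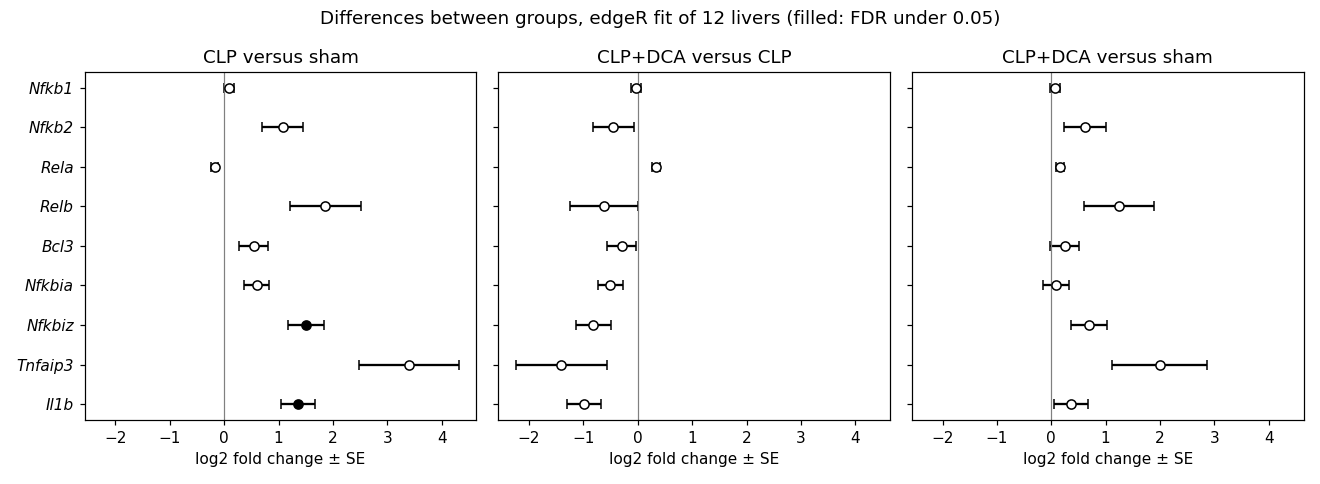
The log2 fold change (horizontal axis, ± SE) of the 9 genes that passed the low-count filter in each of the 3 comparisons, from the edgeR model of 12 livers, with filled points at an FDR under 0.05. Nfkbiz (1.50) and Il1b (1.36) are the filled points, both in CLP versus sham, and Tnfaip3 has the widest error bar there (SE 0.91).

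Which genes passed rested on the livers in the model. Nfkbiz and Il1b passed when CLP replicate 3, CLP+DCA replicate 3 or CLP+DCA replicate 4 was left out, and neither did when any of the other 9 livers was left out, with log2 fold changes over the 12 omissions of 1.23 to 1.71 and 1.19 to 1.52 and FDR of at most 0.125 and 0.129. Without CLP+DCA replicate 3, 5 genes passed (Nfkb2, Relb, Nfkbiz, Tnfaip3 and Il1b), as did 23.8% of all genes. The same 5 genes passed in edgeR on the 8 livers compared, against 18.3% of all genes. DESeq2 on those 8 livers added Bcl3, higher, and Rela, lower, against 18.5% of all genes. Tnfaip3 also passed without CLP replicate 3 (FDR 0.0412). Over the 12 omissions the number of all genes that passed ran from 10 to 3157.

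CLP livers 2 and 4, in which Tnfaip3, Relb, Nfkb2, Nfkbiz and Nfkbia were highest, had fewer reads than the other CLP livers (24436513 and 25683615, against 44266819 and 39686029 in livers 1 and 3) and lower TMM factors. Ratios to Rela within a liver do not depend on library scaling. Rela itself was lower in every CLP liver than in any sham liver (log2 fold change -0.18), which by itself raises each ratio in CLP. For each 100 reads of Rela, sham livers held a mean of 5.78 reads of Tnfaip3 (4.73 to 7.06) and CLP livers 69.2 (16.5 to 120.0). Nfkbiz went from 25.4 (22.5 to 28.1) to 81.2 (43.7 to 124), and Relb from 2.97 (2.59 to 3.49) to 12.2 (5.79 to 18.5). For these genes and for Nfkb2, Bcl3, Il1b and Tnf the ratios of the CLP livers lay above those of all sham livers, while those of Nfkbia (65.6 in sham, 112 in CLP) and Nfkb1 (45.0 and 54.3) overlapped. Depth itself was not tested as a part of these differences.

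To ask whether DCA changed the same genes, CLP+DCA was compared with CLP. No member passed the test, and 0.00758% of all genes (1 of 13190) did. At an unadjusted p under 0.05 there were 3 members (Rela, Nfkbiz and Il1b) and 1319 genes in all. DESeq2 on all 12 livers called 1 member, Rela, and 136 of 18842 genes in all. The comparison shares its CLP livers with that of CLP and sham, so the 2 comparisons are not independent. By non-overlap, 1 member was higher (Rela) and 1 lower (Tnf), against 4.37% of all genes.

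Rela, the main activating subunit, was 52.0, 54.9, 61.6 and 55.1 CPM in CLP+DCA livers 1 to 4, all above the CLP livers (43.4 to 45.3 CPM). The log2 fold change was 0.34 ± 0.07 (SE, unadjusted p = 0.000432, FDR 0.158), or 1.26-fold. Against sham it was 0.16 ± 0.07 (FDR 0.366), and CLP+DCA livers 2, 3 and 4 lay above all sham livers while liver 1 did not. Rela passed against CLP without CLP+DCA replicate 3 (FDR 0.0359).

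The members that were higher in CLP split within the CLP+DCA group. Tnfaip3 was 3.64, 4.34, 34.2 and 3.85 CPM in CLP+DCA livers 1 to 4, Relb 1.28, 1.45, 9.51 and 1.72 CPM, and Nfkb2 7.34, 7.36, 20.3 and 7.67 CPM. In each case replicate 3 lay within or above the CLP range and the other 3 livers near sham. Nfkbiz was 17.8, 15.6, 34.8 and 13.3 CPM, and Il1b was 1.37, 1.11, 2.63 and 1.27 CPM, again with replicate 3 apart from the rest. Bcl3 was 33.1, 49.2, 90.8 and 56.0 CPM, where replicate 3 exceeded the highest CLP liver (80.1 CPM). With all 4 livers the log2 fold changes against CLP were -1.40 ± 0.83 (SE) for Tnfaip3, -0.99 ± 0.31 for Il1b, -0.81 ± 0.33 for Nfkbiz, -0.62 ± 0.63 for Relb, -0.45 ± 0.38 for Nfkb2 and -0.30 ± 0.26 for Bcl3, with FDR of 0.363 to 0.771. Nfkbia (-0.50 ± 0.24, FDR 0.505) and Nfkb1 (-0.03 ± 0.09, FDR 0.939) did not pass either, and the sign of Nfkb1 turned with library totals alone (0.085).

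**Figure D3:**
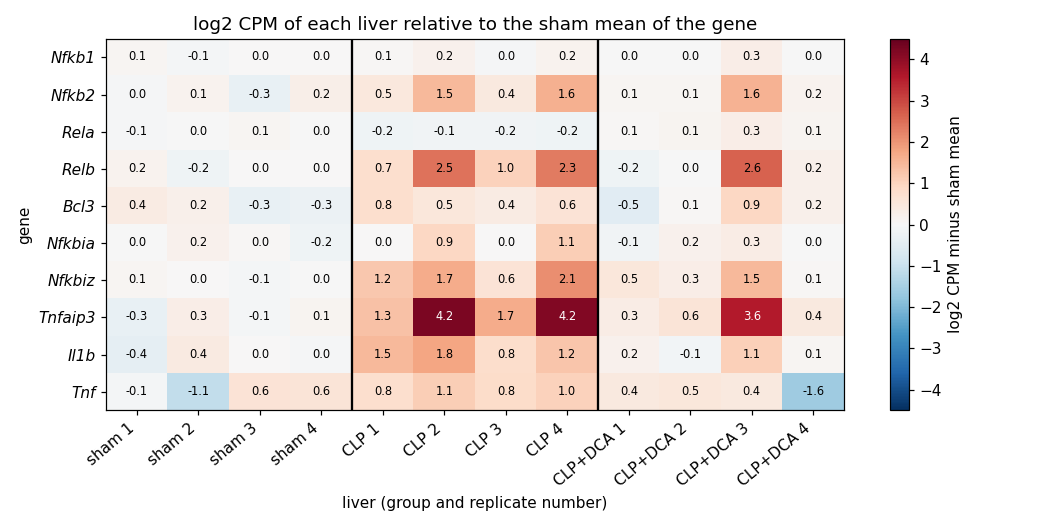
The log2 CPM of each gene (rows) in each liver (columns, by group and replicate number) minus its sham mean, with the value in each cell and red for higher, blue for lower. CLP livers 2 and 4 and CLP+DCA replicate 3 carry the highest Tnfaip3 values (34.2 to 54.2 CPM), while Rela stays near its sham mean of 50.0 CPM in all livers (43.4 to 61.6 CPM).

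In CLP+DCA replicate 3 alone, Tnfaip3 was 11.8-fold, Relb 6.42-fold, Nfkb2 2.92-fold, Nfkbiz 2.75-fold and Il1b 2.13-fold its sham mean. In the other 3 CLP+DCA livers the mean was 1.36-fold sham for Tnfaip3 (3.94 ± 0.357 CPM, SD) and 1.23-fold for Nfkbiz (15.6 ± 2.29 CPM), and between 0.954-fold and 1.08-fold for Nfkb1, Nfkb2, Rela, Relb, Bcl3, Nfkbia and Il1b. Nfkbia, by contrast, was 29.5, 37.6, 40.7 and 32.0 CPM in CLP+DCA livers 1 to 4, so that replicate 3 was 1.24-fold the sham mean and lay below CLP livers 2 and 4. Without replicate 3, which was left out after its values were seen, 4 members passed against CLP, with Rela higher and Relb, Nfkbiz and Il1b lower, and 4.64% of all genes passed. By non-overlap, 1 member was then higher and 7 lower, against 22.8% of all genes.

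Tnf had 6, 6, 7 and 0 reads in CLP+DCA livers 1 to 4, and in CPM all of these livers (at most 0.202) lay below the CLP livers. The difference in log2 CPM was -0.98 (two-sided exact permutation test, n = 4 per group, p = 0.0286). The unfiltered edgeR model gave an adjusted p of 0.681, and the permutation p was 0.114 when any CLP liver was left out. Without CLP+DCA replicate 3 the difference was -1.14 (p = 0.0286 by the same exact test, its lower limit for 4 against 3 livers).

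Against sham, no member passed in CLP+DCA, and 0.0379% of all genes (5) did. At an unadjusted p under 0.05 there were 2 members (Rela and Tnfaip3) and 1714 genes in all, and DESeq2 called no member. Tnfaip3 was the 1 member whose groups did not overlap, its lowest CLP+DCA liver (3.64 CPM) lying just above the highest sham liver (3.52 CPM), against 9.76% of all genes, and its log2 fold change was 1.99 ± 0.88 (SE, FDR 0.377). The other log2 fold changes against sham were 1.25 ± 0.65 (SE) for Relb, 0.69 ± 0.33 for Nfkbiz, 0.62 ± 0.38 for Nfkb2, 0.37 ± 0.31 for Il1b, 0.25 ± 0.26 for Bcl3, 0.09 ± 0.24 for Nfkbia and 0.07 ± 0.09 for Nfkb1, with FDR of 0.400 to 0.867. Those of Relb, Bcl3, Nfkbia and Nfkb1 turned negative when limma voom gave each liver its own weight (-0.36 for Bcl3, and -0.067 to -0.015 for the rest). Tnf differed by -0.05 in log2 CPM (-0.21 without replicate 3), and its groups overlapped. Without replicate 3 no member passed (0.0828% of all genes did), and Tnfaip3 did not overlap, against 13.3% of all genes.

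Markers of some other cell types moved with these genes, and those of others did not. The summed level of 10 neutrophil markers was 6.27 to 9.08 CPM in sham, 31.3 to 44.3 CPM in CLP, and 6.26, 13.9, 57.4 and 6.65 CPM in CLP+DCA livers 1 to 4. Of the 8 that were tested 1 rose in CLP (Retnlg), against 2.78% of all genes, and 7 did without CLP+DCA replicate 3, against 23.8%. Within the list S100a8 and S100a9 made up the largest share of the sum, Mpo was at 0.112 CPM or less in all livers, and Ly6g, which defines mouse neutrophils, was 0.669 to 1.04 CPM in sham and 0.269 to 0.701 CPM in CLP. Among the CLP livers the neutrophil sum spanned less than Tnfaip3 did, with 31.3, 44.3, 35.2 and 32.1 CPM in livers 1 to 4. The summed hepatocyte markers were 63681 to 83012 CPM in sham, 28688 to 46723 in CLP and 25645 in CLP+DCA replicate 3 (51542 to 58687 in the rest of that group). Alb was the largest gene of that sum in every liver. Of the 7 markers, 1 (Hnf4a) had a positive log2 fold change in CLP versus sham (0.05 ± 0.12 SE, FDR 0.783). It was 671 to 765 CPM in sham, 687 to 803 in CLP and 808 in CLP+DCA replicate 3. The 12 markers of Kupffer cells and macrophages summed to 257 to 394 CPM in sham and 380 to 491 in CLP. In CLP+DCA livers 1 to 4 their sum was 605, 599, 361 and 335 CPM. None was called in the model of 12 livers. Without CLP+DCA replicate 3, 1 of the 12 (Marco) rose in CLP versus sham (log2 fold change 2.56 ± 0.63 SE, FDR 0.0197), against 23.8% of all genes. Lymphocyte markers summed to 1.83 to 3.89 CPM in sham, 0.494 to 1.45 in CLP and 0.812 to 2.59 in CLP+DCA (lowest in replicate 3). The 9 markers of stellate cells and cholangiocytes summed to 30.4 to 44.6 CPM in sham, 59.3 to 242 in CLP (highest in replicate 3, mostly Des) and 34.6, 38.2, 127 and 37.2 CPM in CLP+DCA livers 1 to 4. Sox9, a transcription factor of cholangiocytes and the largest gene of the sum in CLP+DCA replicate 3, was 3.81 to 8.22 CPM in sham. It was 13.3, 51.1, 11.4 and 34.5 CPM in CLP livers 1 to 4, and 71.0 CPM in CLP+DCA replicate 3 against 5.75 to 6.54 CPM in the rest of that group. The livers highest in Tnfaip3 were also highest in Sox9, but other cholangiocyte markers of the list did not share this. Krt19 and Krt7 were highest in CLP replicate 3 (3.75 and 2.25 CPM). In CLP+DCA replicate 3 Krt19 was the lowest of its group (0.650 CPM), Krt7 the highest (1.16 CPM), and Epcam (0.921 CPM) lay within its group. The 6 monocyte markers summed to 451 to 483 CPM in sham, 323 to 420 in CLP and 296 in CLP+DCA replicate 3. Most of that sum was F10, which hepatocytes also express and which was lower in CLP. The markers other than F10 summed to 4.46 to 6.21 CPM in sham, 10.3 to 13.5 in CLP, 18.7 in CLP+DCA replicate 3 and 6.08 to 9.07 in the rest of that group. Of these, Plac8 (mean 3.80 CPM in sham, 6.55 in CLP) and Chil3 (0.318 and 3.41) were higher in all CLP livers. Ccr2, Ly6c2 and Ms4a4c overlapped between CLP and sham. Without CLP+DCA replicate 3, 5 neutrophil, 2 stellate cell and cholangiocyte, 1 endothelial and 1 monocyte marker fell in CLP+DCA versus CLP and 1 lymphocyte marker rose, against 4.64% of all genes. No marker then passed in CLP+DCA versus sham. The part of these cells in the results was not tested.

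Beyond the 10 genes, the pathway was followed with 4 lists from general knowledge, chosen with earlier results of these data known. Of 19 tested other family members and feedback inhibitors, 2 rose in CLP and none passed in the other direction, against 2.78% of all genes, with a median log2 fold change of 0.41 beside 0.02 over all genes. The count was 6 without CLP+DCA replicate 3, all higher, against 23.8% of all genes. Tnip1, a partner of A20 that binds ubiquitin chains, was 7.09 to 9.24 CPM in sham and 11.2 to 15.5 CPM in CLP (log2 fold change 0.64 ± 0.14 SE, FDR 0.0452). Traf3, an adaptor that holds the alternative pathway in check, was 11.2 to 12.9 CPM in sham and 16.4 to 30.7 CPM in CLP (0.96 ± 0.23, FDR 0.0479). Nfkbie, the gene of IκBε (0.67 ± 0.17, FDR 0.0522), and Zc3h12a, a ribonuclease that degrades cytokine mRNA (1.96 ± 0.55, FDR 0.0685), did not pass.

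Of 26 tested kinases and adaptors that lie upstream, none passed in either direction, against 2.78% of all genes (6 had an unadjusted p under 0.05), with a median of 0.07. Of 27 tested without CLP+DCA replicate 3, 4 rose and 2 fell, against 23.8%. Ikbke, an IκB kinase that is itself inducible, had the smallest p of the list (log2 fold change 1.37 ± 0.42 SE, FDR 0.0770) and was high in CLP livers 2 and 4 (99.4 and 91.9 CPM) beside 44.5 and 26.9 CPM in livers 1 and 3. The adaptor Myd88 (0.50 ± 0.19), the adaptor Traf5 (-0.66 ± 0.25) and the kinase Chuk (-0.32 ± 0.12) followed, with FDR of 0.112 to 0.119.

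Of 17 tested ligands and receptors 1 passed, against 2.78% of all genes, and it fell. Of 18 tested without CLP+DCA replicate 3, 8 rose and 2 fell, again against 23.8%. Il18, a cytokine of the IL-1 family, was 11.9, 11.8, 11.1 and 12.5 CPM in sham and 6.57, 5.22, 7.62 and 5.75 CPM in CLP (log2 fold change -0.91 ± 0.19 SE, FDR 0.0412), with no overlap. Il1r1, the signalling receptor for IL-1, was 63.3 to 116 CPM in sham and 185 to 473 CPM in CLP (1.75 ± 0.42, FDR 0.0510). Il1rn, the natural antagonist of that receptor, was 1.87 to 5.88 CPM in sham and 20.2, 331, 34.2 and 177 CPM in CLP livers 1 to 4, and it was 318 CPM in CLP+DCA replicate 3 against 3.38 to 5.75 CPM in the rest of that group. All CLP livers were above sham for both genes, but Il1r1, Il1rn (5.36 ± 1.62, FDR 0.0761) and Tlr2, a receptor for bacterial lipoproteins (2.38 ± 0.73, FDR 0.0770), did not pass.

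Of 26 tested textbook targets of NF-κB, 6 rose in CLP, against 2.78% of all genes, with a median of 0.64. No target passed as lower, but Cxcl10, a chemokine for T cells (log2 fold change -1.38 ± 0.36 SE, FDR 0.0581), and Ccnd1, the gene of cyclin D1 (-1.47 ± 0.39, FDR 0.0622), both named after their values were seen, were lower in every CLP liver than in any sham liver. When CLP+DCA replicate 3 was left out, 10 targets rose and 2 fell (Cxcl10 and Ccnd1), against 23.8% of all genes. Saa3, an acute phase serum amyloid, had the largest change, from 12.3 to 19.5 CPM in sham to 4300 to 9008 CPM in CLP (log2 fold change 8.75 ± 0.76 SE, FDR 0.00150). Cxcl1, a neutrophil chemokine (2.23 ± 0.27, FDR 0.00845), Cebpd, a transcription factor of the acute phase (2.17 ± 0.40, FDR 0.0283), and Lcn2, which binds bacterial siderophores (4.09 ± 0.76, FDR 0.0294), followed, and Cxcl2 and Mmp9, named after their values were seen, complete the 6. In CLP+DCA versus sham, Saa3 was the 1 gene of the 4 lists to pass, at 976 to 6983 CPM (7.53 ± 0.73, FDR 0.00428). No gene of the lists passed in CLP+DCA versus CLP. Without CLP+DCA replicate 3, 8 of the 26 targets were called lower against CLP (Ccl2, Cxcl1, Cxcl2, Cxcl5, Ier3, Lcn2, Mmp9 and Saa3, with log2 fold changes of -6.09 to -1.89), as were 2 ligands and receptors (Il1r2 and Il1rn), 1 feedback inhibitor (Irak3) and 1 of the kinases and adaptors (Tab2), while Ube2n rose, against 4.64% of all genes. Against sham Saa3 again was the 1 gene of the lists to pass (6.54 ± 0.39), against 0.0828% of all genes. Cxcl1, at 63.6 to 135 CPM in CLP+DCA and 194 to 376 CPM in CLP, came to an FDR of 0.0967, with CLP+DCA replicate 3 (135 CPM) also below all CLP livers.

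**Figure D4:**
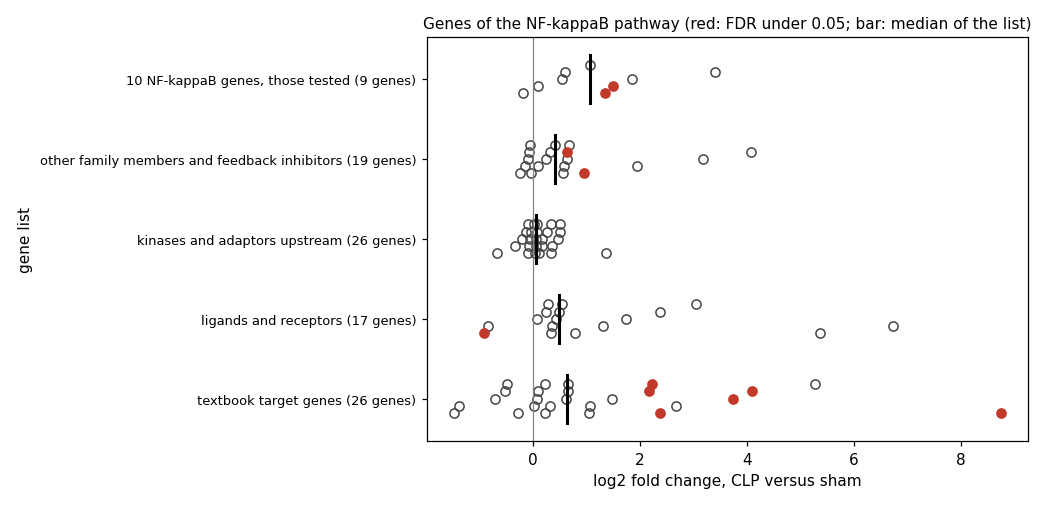
The log2 fold change of CLP versus sham for the 9 tested genes of the NF-κB group and for the tested genes of the 4 pathway lists, 1 point per gene, red at an FDR under 0.05, with a bar at the median of each list. The medians run from 0.07 (kinases and adaptors) to 0.64 (targets) in the 4 lists and stand at 1.08 in the NF-κB group, and Saa3 lies farthest right at 8.75.

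For the 3 members with the smallest p in CLP versus sham, the genes with the most similar pattern were found by the mean absolute difference in log2 CPM relative to sham over the 12 livers, among 11671 genes. Nfkbiz was closest to Tbc1d24 (0.144), Peg3 (0.152) and Susd6 (0.164). Il1b was closest to Lrp5 (0.192), Sqle (0.219) and Spg20 (0.229). Tnfaip3 was closest to Irak3 (0.352) and Steap4 (0.373). Irak3 averaged 1.19 CPM in sham livers and 10.9 CPM in CLP livers, with 25.1 CPM in CLP+DCA replicate 3. These livers share groups and libraries, and the likeness is a description.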

How the data were processed

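Poly(A)-enriched libraries of whole-liver RNA, prepared by the authors with a TruSeq v2 kit, were read as 100 bp pairs. Alignment to mm10 by the authors used STAR 2.5, reads were assigned to genes by featureCounts (Subread 1.5.0-p1), and the deposited table holds these unnormalized read counts. The annotation used for counting is not given in the sources used here. Genes were matched by symbol, each to 1 row. The members and lists were chosen with earlier results of these data known.

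Analyses used R 4.3.3, edgeR 4.0.16, limma 3.58.1 and DESeq2 1.42.0. After filterByExpr (minimum count 10) and TMM scaling, edgeR's robust quasi-likelihood test was fitted to all 12 livers with group means only, on 13190 genes, with Benjamini-Hochberg adjustment and an FDR of 0.05. SE is the log2 fold change divided by the square root of F. Genes under the filter (Tnf) were given an exact permutation test on log2 CPM. Reads carry no molecular identifiers, so copies of 1 molecule may be counted more than 1 time. The edgeR, DESeq2 and limma voom fits of 12 livers, each in its main setting, were tried on simulated data for CLP versus sham. The other comparisons, the alternative settings of edgeR and the permutation test were not tried in this way.

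Genes were named by rule: all members, the 4 genes with the smallest p in CLP versus sham in each pathway list, list genes called in the other comparisons, and the 3 genes closest in pattern to each of 3 members, of which 1 is not reported here. List counts without CLP+DCA replicate 3, and the genes named from them, were added after the data were seen. Marker lists also covered endothelial cells (8 of 8 tested, none called), lymphocytes (3 tested of 10 listed, none called), monocytes (4 tested of 6, none called), and stellate cells with cholangiocytes (9 tested, none called). Those calls are with all livers in the model. Without CLP+DCA replicate 3, 5 of 8 endothelial and 6 of 9 stellate cell and cholangiocyte markers rose in CLP versus sham. Of 4 lymphocyte markers then tested 3 fell, and of 4 monocyte markers 2 rose and 1 fell, against 23.8% of all genes. Tf and Trac were not matched by symbol. Of 7 hepatocyte markers tested, 1 (Alb) fell in CLP, and 3 (Alb, Cps1 and Ttr) did without CLP+DCA replicate 3.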

Additional observations from a re-analysis of the deposited data

Results flagged for a closer look

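For each of the 10 genes in each of the 3 groups, the distance of the highest or lowest liver to its nearest neighbour was divided by the range of the group (Dixon's ratio). Both were taken in log2 CPM with a prior count of 2, while the levels below are in CPM. Of 30 groups, 5 exceeded the 95% critical value, where chance alone flags about 1 in 20 groups, and genes of the same livers are not independent. In 4 of the 5, CLP+DCA replicate 3 was the highest of its group. The ratio was 0.956 for Nfkb1 (28.0 CPM), 0.958 for Nfkb2 (20.3 CPM), 0.855 for Relb (9.51 CPM) and 0.923 for Tnfaip3 (34.2 CPM). The other was Tnf in CLP+DCA replicate 4, the lowest of its group with 0 reads and a ratio of 0.968.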

How the results depend on the processing

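For the 9 tested genes in CLP versus sham, 162 values under the alternatives kept their direction and their side of the threshold, 19 newly passed, 25 no longer passed and 1 reversed. In CLP+DCA versus CLP, 192 were kept, 11 newly passed and 4 reversed, and in CLP+DCA versus sham 199 were kept and 6 reversed. In CLP versus sham, where 2 members and 367 genes passed, the counts of members and genes were 0 and 10 at an FDR of 0.01, 5 and 1894 by DESeq2 on 12 livers, 7 and 3428 by DESeq2 on 8, 5 and 2387 by edgeR on 8, 1 and 209 by library size alone (100 higher and 109 lower, against 216 and 151), 0 and 122 without a filter, and 6 and 3453 by limma voom with sample weights. Leaving out 1 liver gave 0 to 5 members and 10 to 3157 genes. In CLP+DCA versus CLP, where no member and 1 gene passed, they were 0 genes at an FDR of 0.01, 1 member and 136 genes by DESeq2 on 12 livers, 1 and 80 on 8, 0 genes by edgeR on 8, and 5 members (Rela higher, and Relb, Bcl3, Nfkbiz and Il1b lower) and 1341 genes by voom, and 0 to 4 members and 0 to 616 genes with 1 liver left out. In CLP+DCA versus sham no alternative called a member, and the gene counts, 5 at first, were 1 at an FDR of 0.01, 247 and 169 by DESeq2 on 12 and 8 livers, 0 by edgeR on 8, 3 by library size alone, 496 by voom, and 1 to 11 with 1 liver left out. The causes were not tested.

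The deviations of same-numbered livers from their group means had correlations of -0.459 to 0.550 over 12 pairs, 1 of them over 0.1. Livers of unlike number also deviated together (0.704 for CLP 2 and CLP+DCA 3), so these correlations cannot show or exclude a pairing. The numbers were not used as pairs in the main model. With the replicate number as a block, 0 members and 46 genes passed in CLP versus sham, 4 genes in CLP+DCA versus CLP and 0 in CLP+DCA versus sham.

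By library size alone Nfkb1 was -0.083 in CLP versus sham and 0.085 in CLP+DCA versus CLP, the latter running from -0.12 to 0.010 with 1 liver left out. In CLP+DCA versus sham voom gave -0.36 for Bcl3, -0.015 for Nfkb1, -0.067 for Nfkbia and -0.041 for Relb, and with 1 liver left out the range was -0.068 to 0.43 for Bcl3 and -0.025 to 0.10 for Nfkb1. The log2 CPM difference of Tnf without the filter was 0.98 in CLP versus sham (adjusted p = 0.394), -0.96 in CLP+DCA versus CLP (adjusted p = 0.681) and 0.023 in CLP+DCA versus sham, reversed from -0.052. With 1 liver left out it was 0.56 to 1.13, -1.16 to -0.46 and -0.42 to 0.46. At 0 to 11 reads per liver, Tnf is limited by depth.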
